A study of Caenorhabditis elegans with 2 samples.

Results

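The proteasome subunit genes of Caenorhabditis elegans were taken as the protein-coding genes whose annotated symbol begins with pas-, pbs-, rpn- or rpt-. There were 33 such genes among 19973 protein-coding genes on the nuclear chromosomes. The core particle was represented by 14 genes, 7 of the alpha ring (pas-) and 7 of the beta ring (pbs-). The regulatory particle was represented by 19 genes, 6 of the ATPase ring (rpt-) and 13 non-ATPase subunits (rpn-). The other 19940 protein-coding genes served as the background.

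The proteasome is the protease that degrades proteins tagged with ubiquitin in the cytosol and nucleus. Its core particle is a barrel of stacked rings: the alpha rings gate the entry and some beta subunits cut the substrate inside. The regulatory particle caps the barrel, where its ATPase ring unfolds the substrate and non-ATPase subunits bind ubiquitin, remove it and hold the cap together. In C. elegans the transcription factor SKN-1A raises the transcription of these genes together when proteasome function falls. FOS-1 is the worm's Fos family bZIP protein, known for its role in the anchor cell when that cell invades through the basement membrane.

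The study mapped FOS-1 by chromatin immunoprecipitation and sequencing (ChIP-seq) in whole L4 larvae, with males and females pooled. All samples were strain OP304, genotype unc-119(ed3) III; wgIs304, in which wgIs304 is an inserted transgene carrying eGFP-tagged fos-1; the antibody field names fos-1. There was 1 group of 2 biological replicates, and both were set against the same control alignment, so the replicate lists are not independent of it. No strain without the tag is among the samples, so binding could not be compared with an untagged background, and a whole larva averages over all its cell types.

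The measurements were 4 lists of regions on the ce11 genome build: 30000 regions from replicate 1, 29345 from replicate 2, 3527 from the pooled reads, and 248 that passed the authors' irreproducible discovery rate (IDR) step, which keeps regions ranked alike in repeat experiments. The last 248 were the 248 highest-signal regions of the pooled list. The replicate and pooled lists are named by the authors as peaks with background, and most of their regions were weak: 512 of replicate 1, 418 of replicate 2 and 279 of the pooled list had a q-value below 0.05 by the authors' caller. The signal is the caller's own value for each region, and it was used here only to rank regions inside a list, with rank 1 the highest. A gene was counted when a region had its summit in a promoter window that began 1000 bp before an annotated 5′ end of the gene and ended 200 bp after it. The read depth behind the lists is not known from them. The exact Clopper-Pearson intervals given below cover counting error over genes only.

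FOS-1 regions of the strict set were not found at any proteasome promoter. None of the 33 genes (0%, 95% interval up to 10.6%) had an IDR summit, beside 161 of the 19940 other genes (0.807%), a share that would give 0.266 genes in a set of 33. A single IDR region near a promoter is rare for all genes, and at that share a count of 0 in 33 is not distinguishable from the background. The nearest IDR summit lay 1347 bp from a 5′ end at pbs-2 and 2961 bp from one at rpn-8. At pbs-2 that summit was downstream, past the end of the gene. The nearest IDR summit lay up to 631871 bp away, at rpn-5, with a median of 110511 bp over the 33 genes and 151333 bp over the other genes.

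In the pooled list 3 of the 33 genes had a promoter summit (9.09%, 95% interval 1.92 to 24.3%), beside 1528 other genes (7.66%). Those genes were pas-5 and pas-6 of the alpha ring and rpn-3, a non-ATPase subunit of the lid of the regulatory particle. The background share would give 2.53 genes of 33. None of the 3 pooled regions had a q-value below 0.05, which 175 other genes reached (0.878%).

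The replicate lists reached about as many proteasome genes as each other. In replicate 1, 16 of 33 genes had a promoter summit (48.5%, 95% interval 30.8 to 66.5%), beside 39.7% of the other genes. In replicate 2, 16 of 33 did (48.5%, the same interval), beside 39.8% of the other genes. Both background shares lie inside the intervals, so an excess at the proteasome genes was not detectable with 33 genes. When each replicate list was read only to its best 3527 regions, as many as the pooled list holds, replicate 1 reached 5 proteasome genes (15.2%) beside 7.03% of the others, and replicate 2 reached 1 (3.03%) beside 6.76%. Among regions with a q-value below 0.05, replicate 1 held 1 proteasome gene (pas-5, 3.03%) beside 1.41% of the others, and replicate 2 held 0 beside 1.01%.

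**Figure D1:**
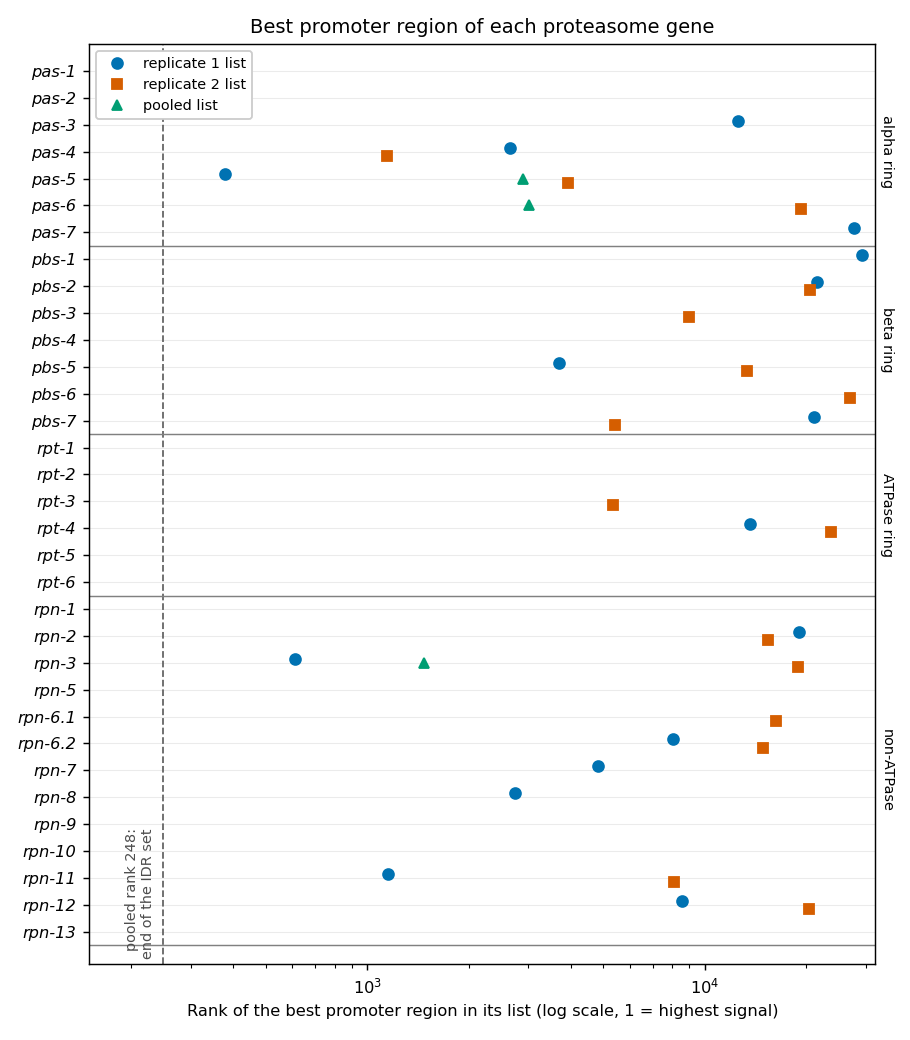
Rank of the best promoter region of each of the 33 proteasome genes (x axis, log scale) in the replicate 1, replicate 2 and pooled lists, with genes grouped by subcomplex; a gene with no symbol had no promoter summit. The dashed line marks rank 248, where the IDR set ends in the pooled list. The 3 pooled regions (rpn-3 at rank 1471, pas-5 at 2892, pas-6 at 3011) all lie right of it.

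The best-ranked pooled region of the set lay at rpn-3 (WBGene00004460, chrIII:8447353-8449346, plus strand). It spanned chrIII:8446990-8447333, with its summit 191 bp upstream of the 5′ end, at rank 1471 with a signal of 20.1 and a −log10 q of 0.184. In replicate 1 the best summit of rpn-3 ranked 612, with a signal of 14.8 and a −log10 q of 1.19, and lay 124 bp upstream. In replicate 2 it ranked 18865, with a signal of 6.35 and a −log10 q of 0.0653, and lay 195 bp upstream. The positions of the replicates were 71 bp apart, while the rank was high in replicate 1 and in the lower part of the list in replicate 2. The region is intergenic, in a gap of 443 bp shared with hsp-110, which encodes a heat shock chaperone and is transcribed the other way, so the same summit counts for both genes. The 250 bases before the 5′ end of rpn-3 (chrIII:8447103-8447352, plus strand, RefSeq WBcel235, the same assembly as ce11) are shown because they hold the summits of the pooled list and of both replicates; capitals mark the 72 bases from the replicate 2 summit to the replicate 1 summit, and the pooled summit lies inside them.
rpn-3 promoter: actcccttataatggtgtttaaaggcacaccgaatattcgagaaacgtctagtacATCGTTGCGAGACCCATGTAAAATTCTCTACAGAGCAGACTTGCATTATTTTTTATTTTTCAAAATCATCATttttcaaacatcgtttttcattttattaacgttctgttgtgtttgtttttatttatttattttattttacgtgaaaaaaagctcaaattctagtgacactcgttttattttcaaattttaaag

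The alpha ring held the other 2 pooled regions. At pas-5 (WBGene00003926, chrI:10566350-10567300, plus strand) the pooled summit lay 913 bp upstream in intergenic sequence, at rank 2892 with a signal of 17.3 and a −log10 q of 0.0408. Its best summit in replicate 1 was the best-ranked of all proteasome genes in either replicate, at rank 380 with a signal of 16.5 and a −log10 q of 1.60, 996 bp upstream. That position is 4 bp inside the edge of the promoter window. In replicate 2 the best summit of pas-5 ranked 3932, with a signal of 10.4, at 438 bp upstream, so the replicates placed it 558 bp apart. At pas-6 (WBGene00003927, chrV:5583161-5584343, minus strand) the pooled summit lay 923 bp upstream, in an intron of the divergent gene CD4.11, at rank 3011 with a signal of 17.1. Replicate 2 had a summit 862 bp upstream of pas-6 at rank 19291 (signal 6.29), and replicate 1 had none in the window.

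The best-ranked alpha ring gene of replicate 2 was pas-4 (WBGene00003925, chrI:8727218-8728487, minus strand), at rank 1142 with a signal of 13.6 and a −log10 q of 0.816. That summit lay 340 bp upstream, in a coding exon of rpb-3, an RNA polymerase II subunit gene transcribed the other way. In replicate 1 the best summit of pas-4 ranked 2649, with a signal of 10.8, at 41 bp upstream. pas-4 was the only proteasome gene within the best 3527 regions of both replicates, though at different positions in each, and it had no pooled region. The share of other genes within the best 3527 regions of both replicates was not counted. Of the other alpha ring genes, pas-3 (rank 12527) and pas-7 (rank 27629) had a summit in replicate 1 only, and pas-1 and pas-2 had none in any list.

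In the beta ring the best rank in replicate 1 belonged to pbs-5 (WBGene00003951, chrI:14719167-14720477, minus strand), the subunit with the chymotrypsin-like activity. It ranked 3702, with a signal of 9.92, and its summit lay 171 bp downstream of the 5′ end in the coding sequence. In replicate 2 the best summit of pbs-5 ranked 13351, with a signal of 7.28, at 968 bp upstream. The best beta ring rank in replicate 2 belonged to pbs-7 (WBGene00003953, chrI:8695205-8696301, minus strand), at rank 5425 with a signal of 9.61, 186 bp upstream. pbs-7 ranked 21086 in replicate 1, with a signal of 5.69, 259 bp upstream, 73 bp from the replicate 2 position. The other beta ring ranks ran from 8944 (pbs-3, replicate 2) to 29278 (pbs-1, replicate 1), and pbs-4 had no summit in any list.

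The ATPase ring had a summit at 1 of 6 genes in replicate 1, at 2 of 6 in replicate 2 and at none in the pooled list, where the beta ring also had none. At rpt-4 (WBGene00004504, chrII:42207-46216, minus strand) the summits ranked 13596 in replicate 1 (signal 6.83) and 23572 in replicate 2 (signal 5.72), 387 bp apart. At rpt-3 (WBGene00004503, chrIII:6489793-6491282, plus strand) replicate 2 ranked 5352 (signal 9.65), 702 bp upstream in the 3′ UTR of the neighbour chtb-2, and replicate 1 had no summit. rpt-1, rpt-2, rpt-5 and rpt-6 had none. With 6 genes the 95% intervals, 0.421 to 64.1% in replicate 1 and 4.33 to 77.7% in replicate 2, hold the background shares.

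Of the non-ATPase subunits, 7 of 13 had a summit in replicate 1 (95% interval 25.1 to 80.8%) and 6 of 13 in replicate 2 (19.2 to 74.9%), and both intervals hold the background shares of 39.7% and 39.8%. After rpn-3 the best replicate 1 rank belonged to rpn-11 (WBGene00004467, chrII:4043055-4044546, minus strand), which encodes the deubiquitinase that removes ubiquitin chains from substrates. Its best summit in replicate 1 ranked 1155, with a signal of 12.9 and a −log10 q of 0.841, 50 bp upstream. In replicate 2 it ranked 8116, with a signal of 8.59, 366 bp upstream, which was the best replicate 2 rank of any non-ATPase gene. rpn-8, whose product pairs with RPN-11 in the lid, ranked 2742 in replicate 1 and had no summit in replicate 2. The lid subunit gene rpn-7 ranked 4832 in replicate 1 and had none in replicate 2, and rpn-6.1 ranked 16211 in replicate 2 and had none in replicate 1. The ubiquitin receptor genes rpn-1, rpn-10 and rpn-13 had no summit in any list, nor had the lid subunit genes rpn-5 and rpn-9. Among the 19940 other genes, 8288 had no summit in either replicate, so an absence alone does not set these genes apart.

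Core and regulatory particle genes were set side by side in the same lists. In the pooled list 2 of 14 core genes (14.3%, 95% interval 1.78 to 42.8%) and 1 of 19 regulatory genes (5.26%, 0.133 to 26.0%) had a summit. In each replicate list 8 of 14 core genes (57.1%, 28.9 to 82.3%) and 8 of 19 regulatory genes (42.1%, 20.3 to 66.5%) did. The intervals of the core and regulatory genes overlap in all 3 lists, which is not itself a test of a difference. All 8 proteasome genes with more than 1 annotated 5′ end belonged to the regulatory particle. The promoter windows of regulatory genes had a mean of 1398 bp, beside 1201 bp for core genes and 1460 bp for the other protein-coding genes. The shares were not corrected for this length. Per Mb of window, proteasome genes held 0 IDR regions beside 5.67 at the other genes, and 69.2 pooled regions beside 56.5. In replicate 1 they held 484 beside 348, and in replicate 2 484 beside 351. No interval was computed for these densities.

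The ranks moved in opposite directions between replicates. Over the genes with a summit, the median best rank was 8282 in replicate 1, better than the 12185.5 of the other genes, and 15111 in replicate 2, worse than the 12117 of the other genes. Core genes had a median rank of 16806.5 in replicate 1 and 11147.5 in replicate 2. Regulatory genes had 6433 in replicate 1 and 15803.5 in replicate 2. By these medians the better-ranked particle was the regulatory one in replicate 1 and the core in replicate 2. Each median rests on 8 genes with widely spread ranks. In replicate 1 they ran from 380 to 29278 (core) and 612 to 19044 (regulatory). In replicate 2 they ran from 1142 to 26833 (core) and 5352 to 23572 (regulatory).

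**Figure D2:**
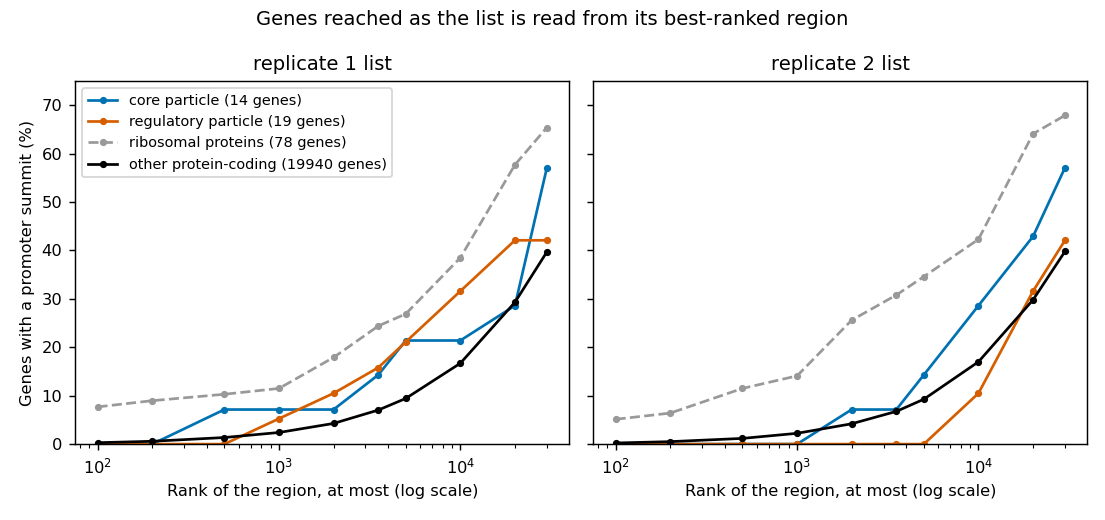
Share of genes with a promoter summit (y axis, percent) when each replicate list is read down to a given rank (x axis, log scale), for core, regulatory, ribosomal protein and all other protein-coding genes. At rank 10000 regulatory genes stood at 31.6% in replicate 1 and 10.5% in replicate 2, on either side of the other genes, while ribosomal protein genes lay above the other genes in both. At rank 20000 regulatory genes were above the other genes in both, at 42.1% beside 29.3% in replicate 1 and 31.6% beside 29.8% in replicate 2.

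Across replicates, 11 of the 33 genes (33.3%) had a promoter summit in both lists, beside 21% of the other genes. In neither list was there one for 12 of the 33, beside 8288 of the 19940 other genes. A further 5 genes had one in replicate 1 alone and 5 in replicate 2 alone, beside 3723 and 3744 of the 19940 other genes. In 6 genes (18.2%, beside 12.5% of the others) any summits of both replicates lay within 200 bp of each other: pas-4, pbs-5, pbs-7, rpn-3, rpn-11 and rpn-12. For pas-4, pbs-5 and rpn-11 the summits that lay together were not the best-ranked ones of both replicates. Over the 11 genes in both lists, Spearman's rho of the best ranks was 0.48, and over the 4185 other genes in both lists it was 0.23; both lists share the control alignment, and the values are a description across genes.

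The upstream arrangement of the proteasome genes differed from that of most genes, and this bears on whose promoter a summit is in. The nearest upstream protein-coding gene was divergently transcribed, and began within 1000 bp upstream or overlapped the gene, for 21 of the 33 genes (63.6%), beside 18.6% of the other genes. Without the overlapping pairs, of which rpt-4 with rpoa-49 was the only one at a proteasome gene, it was 20 of 33 (60.6%) beside 17.3%. Among genes arranged in this way, 2 of 21 proteasome genes (9.52%) and 10.1% of the others had a pooled summit, and 0 of 21 and 1.81% had an IDR summit. In replicate 1 the shares were 57.1% and 43.6%, and in replicate 2 they were 47.6% and 41.2%. Of the regions themselves, 2 of the 3 pooled, 15 of the 21 replicate 1 and 13 of the 21 replicate 2 regions also lay in the promoter window of another protein-coding gene. The share of such regions at the other genes was not counted, so this sharing cannot be called particular to the proteasome genes. The pair of rpn-12 and rad-23 is an example within the pathway, since rad-23 encodes a shuttle that brings ubiquitin-tagged proteins to the proteasome; the same region ranked 8530 in replicate 1 and 20367 in replicate 2 and counted for both.

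The summits were spread over the whole promoter window. Of the 21 replicate 1 regions, 9 lay within 500 bp upstream, 4 lay downstream of the 5′ end and the others farther upstream. Of the 21 replicate 2 regions, 13 lay within 500 bp upstream and 2 downstream. In the 200 bp just upstream the share was 28.6% in both replicates (6 of 21 summits each), beside 20.2% and 19.8% of the summits at other genes. By annotation, 9 regions of replicate 1 were intergenic, 8 lay in coding exons and 4 in introns. Of replicate 2, 8 were intergenic, 5 in coding exons, 4 in introns and 4 in UTRs. These places were not counted for regions at the other genes.

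Ribosomal protein genes had higher shares than proteasome genes in the same lists, though the intervals were apart in the pooled list only. Of 78 cytosolic ribosomal protein genes, 9 (11.5%, 95% interval 5.41 to 20.8%) had an IDR summit and 29 (37.2%, 26.5 to 48.9%) a pooled one. The pooled interval of the ribosomal genes does not overlap that of the proteasome genes (1.92 to 24.3%), while their intervals overlap in the IDR list and in both replicate lists, where the ribosomal genes had shares of 65.4% (53.8 to 75.8%) and 67.9% (56.4 to 78.1%). The vacuolar ATPase, the proton pump of lysosomes, had IDR summits at 2 of 20 genes and pooled summits at 4. The chaperonin that folds actin and tubulin had both at 2 of 8 genes. The intervals of these smaller complexes overlap that of the proteasome genes. Overlap of intervals is not a test of a difference, and none was run.

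**Figure D3:**
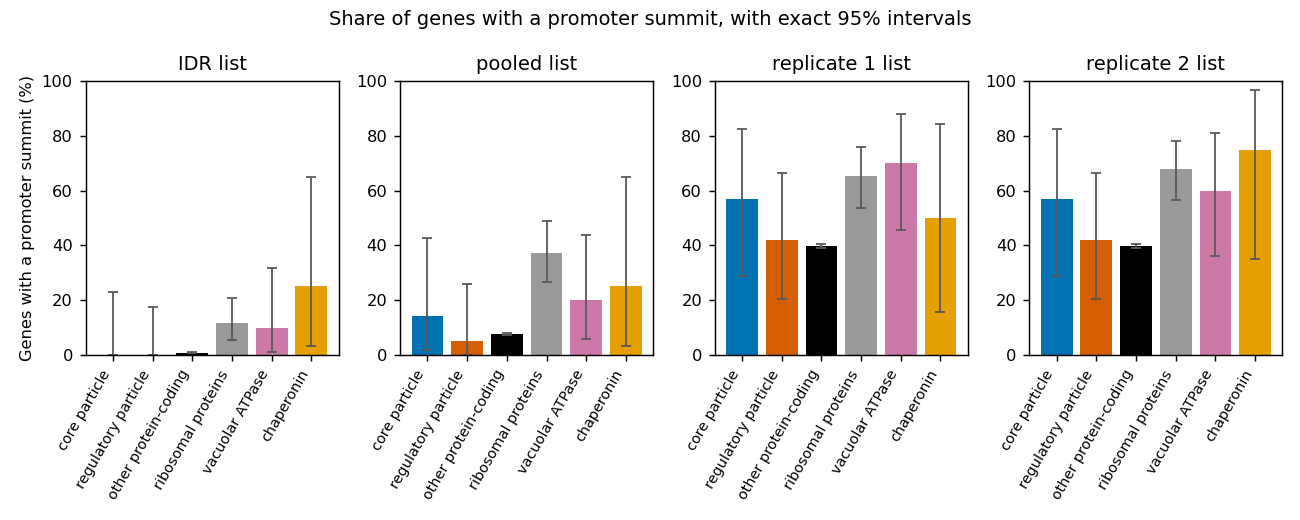
Percent of genes with a promoter summit in each of the 4 lists (bars) with exact 95% intervals (error bars), for core and regulatory particle genes, the other protein-coding genes and 3 other complexes. In the IDR list both proteasome bars are at 0, beside 11.5% for ribosomal protein genes and 0.807% for the other genes.

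Genes that work with the proteasome were examined as 4 lists of 22 genes in all. Of these, 2 had an IDR summit, 7 a pooled summit, 12 a replicate 1 summit and 14 a replicate 2 summit. Among the protein-coding genes outside the proteasome the shares were 0.807%, 7.66%, 39.7% and 39.8%. The 4 lists were chosen with earlier results of these data known, so these counts cannot test for an excess. The IDR summits were at cdc-48.1 and ecps-1. cdc-48.1 encodes the unfoldase that hands ubiquitin-tagged proteins to the proteasome, and its summit, 161 bp upstream, ranked 18 in the pooled list with a signal of 77.3, 14 in replicate 1 and 80 in replicate 2. ecps-1, the homolog of a yeast protein that binds and tethers proteasomes, ranked 220 in the pooled list with a signal of 32.4, 219 bp upstream. Its best summit in replicate 2 ranked 256, 186 bp upstream. In replicate 1 its best summit ranked 751 but lay elsewhere in the window, 722 bp upstream.

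The other 5 pooled summits of these lists were at ufd-1 (rank 587), skn-1 (922), uba-1 (953), psme-3 (1627) and ubql-1 (2373). UFD-1 is an adaptor of CDC-48, UBA-1 activates ubiquitin, PSME-3 is an activator cap that binds the core particle, and UBQL-1 is a shuttle for ubiquitin-tagged proteins. At ufd-1 the replicate 1 and replicate 2 summits lay 146 and 145 bp upstream, at ranks 3651 and 1730. At skn-1, whose SKN-1A form acts on the proteasome genes, they lay 203 and 361 bp upstream, at ranks 4630 and 1239. The ubiquitin genes ubq-1 and ubq-2 had no pooled summit.

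The promoter sequences were searched for 4 motifs on both strands from 250 bases before to 50 bases after the outermost 5′ end. The AP-1 motif, TGAGTCA or TGACTCA, which Fos proteins bind with Jun partners, was in none of the 33 promoters, in none of the 78 ribosomal protein promoters and in 3.63% of the promoters outside the proteasome. The CRE motif, TGACGTCA, was in 1 (pbs-2, 3.03%) and in 1.51% of the others. Around the summits themselves, within 100 bp, AP-1 was in 0 of 3 pooled regions, 0 of 21 replicate 1 regions and 0 of 21 replicate 2 regions of the proteasome genes. Summit regions at the other genes carried it in 11.1% of 126 IDR, 4.48% of 1407 pooled, 2.51% of 9016 replicate 1 and 2.56% of 9087 replicate 2 regions.

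The SKN-1 element, written as A or T, A or T, T, A or G, then TCAT, was in 11 of the 33 promoters (33.3%), beside 16.5% of the other promoters and 16.7% of those of ribosomal protein genes. It was in 4 of 14 core and 7 of 19 regulatory promoters. The antioxidant response element core, TGACNNNGC, was in 5 (15.2%), beside 5.14% of the others: pas-5, pbs-7, rpt-2, rpt-5 and rpn-6.2. Only rpt-2 held both. Of the regions at proteasome genes, 6 of 21 in replicate 1 (28.6%) and 2 of 21 in replicate 2 (9.52%) had the SKN-1 element within 100 bp of the summit, beside 10% and 10.2% at the other genes. That search followed the summits, so it also took in elements outside the promoter stretch searched above. A match is a description of the letters, not a bound site. The elements upstream of the 5′ end are shown for 8 of the 11 genes, because the element was in a larger share of the proteasome promoters than of the others. Each line reads along the gene's strand (RefSeq WBcel235), with the element in capitals and 10 bases on each side; rpt-2 is shown further on, and those of rpn-11, which lies after the 5′ end, and rpn-8 are not printed.
pas-2 element: agttcgaatgATGACAATttcaccgggt
pas-6 element: actcgcttatTTTGTCATcctttcaaat
pbs-1 element: ttgagatttgATGACAATgttttttctg
pbs-6 element: ttaattgaatTTTGTCATattgaatatt
rpt-6 element: ctccggttgaAATATCATcatttttaaa
rpn-2 element: ttggacgaaaTTTGTCATtcgcaatcat
rpn-5 element: ctgagaaaacATGATAAAagagcaaaaa
rpn-12 element: acctgccagaATTGTCATtgtgtcgatt
The printed spans, element and flanks together, were chrV:10770247-10770274 plus strand (pas-2), chrV:5584522-5584549 minus strand (pas-6), chrIV:1709873-1709900 minus strand (pbs-1), chrIII:8244131-8244158 minus strand (pbs-6), chrIII:12370250-12370277 plus strand (rpt-6), chrIII:6198942-6198969 plus strand (rpn-2), chrII:4698629-4698656 minus strand (rpn-5) and chrII:11652978-11653005 plus strand (rpn-12). Of the 11 genes with the element, 3 had a promoter summit within 100 bp of it. These were rpn-2 in replicate 2 (3 bp away, rank 15396), rpn-8 in replicate 1 (27 bp, rank 2742) and rpn-11 in both replicates. At rpn-11 the distances were 74 bp in replicate 1 (rank 1155) and 98 bp in replicate 2 (rank 27167). The share among other genes with the element was not counted, so 3 of 11 has no background beside it. In pas-6, pbs-1, pbs-6 and rpn-12 the nearest summit of any list was 166 to 666 bp away, and pas-2, rpt-2, rpt-6 and rpn-5 had no promoter summit in any list.

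rpt-2 (WBGene00004502, chrV:6016059-6017669, minus strand), an ATPase of the unfolding ring, stood next to the gene of the mapped factor. Its 3′ end overlapped the 3′ end of fos-1 (chrV:6003601-6016087, plus strand) by 29 bp, and its 5′ end lay 1582 bp past the end of fos-1. Both genes fell in a stretch without summits. In replicate 1 no summit lay from chrV:5978328 to chrV:6030144, a gap of 51.8 kb that was the 6th longest of 29994 gaps between neighbouring summits, where the median gap was 2161 bp. In replicate 2 the gap ran from chrV:5976960 to chrV:6038232, 61.3 kb, the 5th longest of 29321, with a median of 2156 bp. The pooled gap was 165 kb, the 36th longest of 3521.

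Within 20 kb of the 5′ end, rpt-2 had 2 regions in replicate 1 and 0 in replicate 2, beside medians of 13 and 11 over the 33 genes. Among the other protein-coding genes, 0.371% had 0 regions within 20 kb in replicate 2, as rpt-2 did. In replicate 1, where rpt-2 had 2, 0.286% of the other genes had 0, and the share with 2 or fewer was not counted. The strain carries an inserted copy of tagged fos-1, whose part in the gap was not tested. The absence of a summit at rpt-2 lies in a gap that wholly held 8 protein-coding genes in replicate 1 and 9 in replicate 2. The 111 bases from 210 to 100 upstream of rpt-2 (chrV:6017769-6017879, minus strand) are shown because they hold both kinds of element; capitals mark an antioxidant response element core that begins 199 bases upstream, on the opposite strand, and a second one at 125 that overlaps a SKN-1 element.
rpt-2 promoter: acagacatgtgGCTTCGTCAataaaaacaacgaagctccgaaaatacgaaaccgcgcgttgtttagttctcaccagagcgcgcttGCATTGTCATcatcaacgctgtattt

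**Figure D4:**
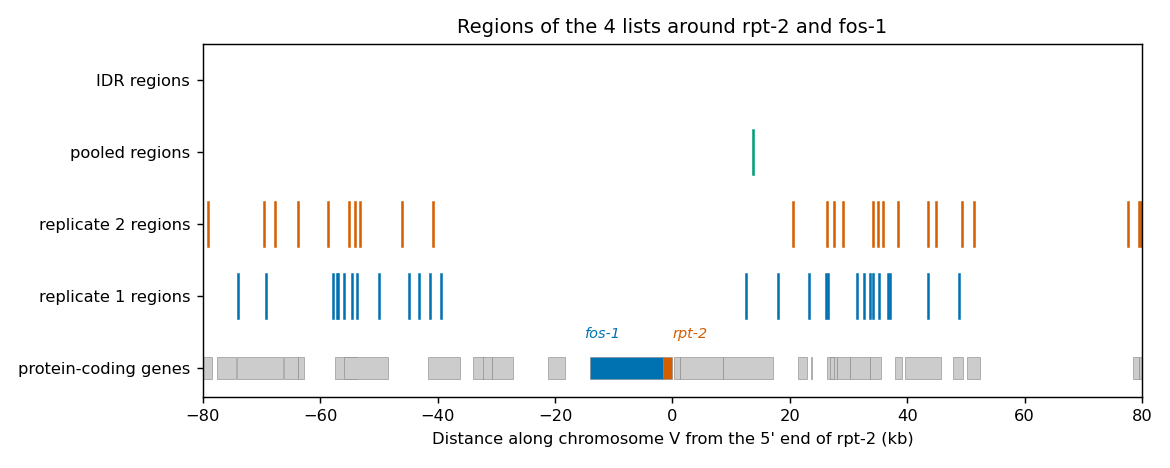
Summits of the replicate, pooled and IDR regions (vertical ticks) and protein-coding genes (boxes) along chromosome V, by distance in kb from the 5′ end of rpt-2 (orange), which lies beside fos-1 (blue). No replicate summit falls over either gene, in gaps of 51.8 kb (replicate 1) and 61.3 kb (replicate 2).

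The proteasome genes lay on chromosomes I (10 genes), II (7), III (8), IV (3) and V (5), and none was on X, which holds 13.7% of the other genes. Against autosomal genes alone, the background shares were 0.848% in the IDR list, 7.64% in the pooled list, 39.7% in replicate 1 and 39.8% in replicate 2, so leaving X out of the background changed little.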

How the data were processed

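The authors deposited region lists on ce11, each with a signal value, a −log10 q-value and a summit per region; the deposited signal and −log10 q are the authors' caller's own values, and the caller, aligner and IDR threshold were not given in the sources used here. Both replicates share a control alignment, per the labels. The READMEs and the ce10 copies were not used. Ranks by signal, with ties sharing the better rank, were computed here with Python 3.11.15, numpy 2.4.6 and scipy 1.17.1, and figures with matplotlib 3.10.9. Genes and 5′ ends came from Ensembl release 115, without 12 mitochondrial genes, and sequences from RefSeq WBcel235. No count of reads was available, and no set test was run: counts stand beside those of all other protein-coding genes. The assignment of summits to genes was tested on simulated data. Members and lists were chosen with earlier results of these data known. Full values are given for members with an IDR or pooled summit and for the best-ranked member of each subcomplex in each replicate. All other members named with a rank or an absence fall outside this rule and were named after their values were seen. Among them are rpn-8, rpn-7, rpn-6.1, rpt-2 and the ubiquitin receptor genes. Alternatives tried were other promoter windows, overlap in place of summits, the outermost 5′ end alone, shorter lists, nuclear regions only and each replicate alone. The autosomal background and leaving out rpt-2 were added after seeing the data.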

Additional observations from a re-analysis of the deposited data

How the results depend on the processing

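Of 54 recomputed values, 11 could not move by construction: those that left out rpt-2, which has no summit, or changed only the background genes, and those that shortened the IDR list or its promoter windows, where the count was already 0. Of the other 43, 30 stayed within 1.5 times the reported count or rank and 13 moved further. The 30 include the replicate 1 median rank over nuclear regions only, which could not move either, since that list holds 0 mitochondrial regions. The IDR count also stayed 0 with the wide window and with overlap in place of summits. The IDR step needs repeats, so for a single replicate its best-ranked regions were taken in place of the IDR set. These also gave 0, where the best proteasome ranks were 380 in replicate 1 and 1142 in replicate 2.

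The 3 pooled genes became 1 with a narrow window (500 bp upstream to 100 bp downstream) and 1 in the better-ranked part of the list; with equally long lists from single replicates the count ran from 1 to 5. The pooled core count went from 2 to 0 (narrow window) and ran from 1 to 2 with single replicates, and the regulatory count ran from 0 to 3. The 16 genes of replicate 1 became 8 with the narrow window and 5 in the best 3527 regions. The 16 of replicate 2 became 7 in the better-ranked part of the list and 1 in the best 3527 regions. The replicate 1 median rank became 3787 with the narrow window.

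The side of the background turned in 11 of 35 recomputed counts. These tallies, and the 13 values that moved, hold repeats. The pooled count without replicate 1 is the same measurement as replicate 2 in its best 3527 regions. The pooled count without replicate 2 is likewise that of replicate 1 in its best 3527 regions. The pooled share fell below the background with the narrow window (3.03% beside 5.03%), the wide window (9.09% beside 11.6%), the better-ranked part of the list (3.03% beside 4.42%) and without replicate 1 (3.03% beside 6.76%). So did replicate 1 with the narrow window (24.2% beside 25.4%), and replicate 2 with the wide window (54.5% beside 58.2%), in the better-ranked part (21.2% beside 23.4%) and in the best 3527 regions (3.03% beside 6.76%). The pooled core share fell below it with the narrow window (0% beside 5.03%), and the regulatory share rose above it with the narrow window (5.26% beside 5.03%) and without replicate 2 (15.8% beside 7.03%). The cause of these moves was not tested. With 33 genes and 2 replicates, a share near the background cannot be told apart from one moderately above it.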
